A study of Mus musculus with 27 samples.

Results

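The subject is how the expression gap between recruited and resident alveolar macrophages changed from day 3 to day 6 after lipopolysaccharide (LPS), gene by gene. For each gene the gap is the log2 level in recruited cells minus that in resident cells, and the interaction is the gap on day 6 minus the gap on day 3, which equals the day 6 minus day 3 change of recruited cells minus that of resident cells. A positive interaction means that the gap rose towards recruited cells, and a negative one that it fell. Of 38124 genes in the count table, 13599 passed a filter on low counts and were tested. The study followed both populations through acute lung injury and sequenced polyadenylated RNA of 27 sorted samples, of which 12 carry this comparison, with n = 3 libraries in each of 4 groups. All came from C57B/6 mice aged 8 to 14 weeks that had received 20 ng LPS in 50 µL of saline into the trachea, the dose unit being as labelled. Resident cells on days 3 and 6 were sorted as CD11c positive and CD11b negative, and recruited cells on days 3 and 6 as CD11c negative and CD11b positive. Untreated resident cells (day 0, n = 3) serve as a reference level. Nothing in the labels tells separate from pooled mice within a group, so p-values measure the spread between these samples, which may be technical.

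Resident alveolar macrophages live in the air spaces, clear surfactant and renew themselves by local division. After inhaled endotoxin, blood monocytes enter the air space and become recruited macrophages. Interferons switch on antiviral genes, LPS acts through Toll-like receptor 4 to switch on cytokines and chemokines, and resolution is the phase in which both programmes decline, dying cells are cleared and tissue is repaired. The comparison separates genes whose decline or rise was shared by the 2 populations from genes that changed in 1 population or unequally.

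Levels are in CPM, read counts divided by scaled library totals, and positions are GRCm38 (the deposited files' build is mm10), in genes that GENCODE M21 lists as protein coding. Totals of the 12 libraries were 11093216 to 16728875 counts. Recruited day 6 replicate 2 stood apart, with the lowest total and 26.45% of its reads outside genes, against 9.157% to 11.19% in untreated cells. In Recruited day 3 replicate 1 the mean of 37 listed genes of resident identity was 6.19 log2 CPM, against 5.11 and 4.79 in replicates 2 and 3. Without that library 1390 genes had a called interaction, against 1147 with it. The part of this difference in the results was not tested. Transcripts of the sort markers were checked. Itgax, which encodes CD11c, held 1616, 1212 and 1298 CPM in resident cells on day 3, 2089, 2163 and 2129 on day 6, 306, 201 and 148 in recruited cells on day 3 and 313, 289 and 305 on day 6. Itgam, which encodes CD11b, held 352, 329 and 514 CPM in resident cells on day 3, 64.4, 21.5 and 53.4 on day 6, 2249, 3035 and 3778 in recruited cells on day 3 and 2042, 2165 and 2418 on day 6. Itgam was thus present in cells sorted as CD11b negative on day 3. Summed neutrophil markers (20 listed) were 1108 to 2202 CPM in resident cells on day 3 and 301.5 to 405 on day 6. In recruited cells they were 1620 to 2937 and 492.9 to 546.3 CPM, with Elane at 0 in both resident groups and in recruited cells on day 3. The largest member on day 3 was Lcn2, at 581.7, 1140 and 1645 CPM in resident cells and 970, 1546 and 1209 in recruited cells. On day 6 Lcn2 held 24.06, 11.27 and 32.99 CPM in resident cells and 23.5, 26.17 and 21.87 in recruited cells. S100a8 and S100a9 also fell in both populations, Mmp8 rose in resident cells, and Ly6g was at most 0.314 CPM in any of the 12 libraries. Dendritic cell markers (14 listed) summed to 95.21 to 149.5 and 48.81 to 114.4 CPM in resident cells and to 251.8 to 325.8 and 90.47 to 129.6 CPM in recruited cells on days 3 and 6. Most of that sum was Bst2, an interferon-induced gene also counted among the interferon-stimulated genes, at 226.7 to 293.4 and 65.69 to 88.01 CPM in recruited cells. The other 13 dendritic markers summed to 24.93 to 43.69 and 19.35 to 43.53 CPM in resident cells and 21.25 to 32.4 and 17.09 to 41.59 in recruited cells, with overlap between the days. The part of these markers in the results was not tested. In bulk samples, fewer cells of a type and less RNA per cell cannot be told apart.

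Where both populations changed, they mostly went the same way, and a smaller set of genes moved apart. From day 3 to day 6, 3329 genes changed in resident cells (1519 rose and 1810 fell, 24.5% of those tested) and 4332 in recruited cells (2051 rose and 2281 fell, 31.9%). Of 1717 genes called in both, 756 rose and 891 fell in both and 70 went in opposite directions, so 95.9% kept 1 direction. The interaction itself passed the test in 1147 genes (8.43%; edgeR quasi-likelihood test, adjusted p under 0.05), 568 higher (4.18%) and 579 lower (4.26%). With the resident and recruited libraries of 1 day and number as pairs, 2198 genes passed (16.2%), 1132 higher (8.32%) and 1066 lower (7.84%). At unadjusted p under 0.05, 1600 of the 13599 genes were higher and 1488 lower, and DESeq2 called 789 higher and 729 lower. List counts of these 2 kinds below are to be read beside these numbers. Scaling by library size alone moved the median interaction of all genes from 0.01 to 0.12 log2 and called 752 higher against 311 lower. Without both libraries numbered 2 of day 6, 624 genes passed, and without Recruited day 6 replicate 2 alone 847 did. The lower genes numbered 376 without Recruited day 3 replicate 2.

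Among the 1147 genes, 596 were called in recruited cells alone, 320 in resident cells alone, 147 in both with unequal size, 70 in opposite directions and 14 in neither. A further 980 genes were called in both populations in 1 direction, had no called interaction and had a 95% interval of the interaction within 1 log2 on either side of 0, and these are the shared genes below. For another 520 genes called in both, that interval was wider, so an equal change was not shown. The shared set numbered 569 without Resident day 3 replicate 3, the recruited set 396 without Recruited day 3 replicate 2 or without replicate 3, and the resident set 208 without Resident day 3 replicate 3 and 192 without Resident day 6 replicate 2. The unequal set fell to between 86 and 92 without replicate 2 or 3 of either resident group, and the opposite set to between 34 and 44 without Resident day 3 replicate 3 or any 1 of the Resident day 6 libraries. With pairs as a block, the recruited set numbered 1006, the resident set 560 and the unequal set 282.

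Called genes were sorted by when the 2 populations were apart. Of the 579 lower genes, 312 were apart on day 3 only, 127 on day 6 only, 59 were apart on both days with a narrower gap on day 6, 13 with a wider gap and 62 with the sign turned. Another 6 were apart on neither day. The 568 higher genes divided into 259 apart on day 3 only, 68 on day 6 only, 177 narrower, 27 wider, 34 turned and 3 apart on neither day. No test was made of one pattern against another.

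**Figure D1:**
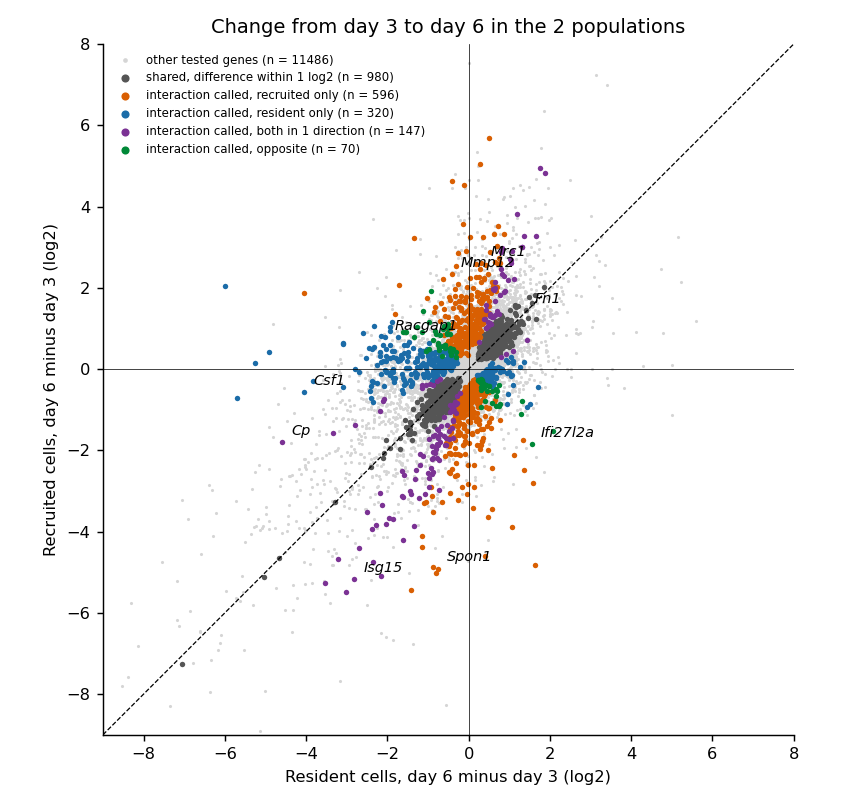
Each point is 1 of 13599 tested genes, with its day 6 minus day 3 log2 change in resident cells on the horizontal axis and in recruited cells on the vertical axis; colours give the classes and the dashed line marks equal change. The 980 shared genes lie near the line, the 596 recruited genes spread along the vertical axis and the 320 resident genes along the horizontal axis.

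Interferon-stimulated genes had the lowest median interaction of the 41 lists. All 36 tested members had a negative interaction, 22 of them called lower and 0 higher by edgeR (4.26% and 4.18% over all genes; 31 and 0 at unadjusted p under 0.05, 25 and 0 by DESeq2), with a median of -1.70 log2 against 0.01 over all genes tested. Recruited cells fell in 36 of 36 members (16.8% of all genes), whereas resident cells fell in 20 (13.3%) and rose in 1. On day 3 recruited cells were above resident cells in 36 of 36 (23.2% of all genes), and on day 6 above in 4 (16.2%) and below in 5 (18.8%). The list mean in log2 CPM was 7.13, 7.60 and 7.28 in the recruited libraries of day 3 and 4.81, 3.83 and 4.24 on day 6, and 5.29, 5.07 and 5.61 in resident libraries on day 3 and 4.85, 3.37 and 3.61 on day 6. Untreated resident cells stood at 3.91, 3.40 and 3.44. Recruited cells were highest on day 3 without overlap. Replicate 1 was the highest library of its group in resident cells on day 6, recruited cells on day 6 and untreated cells. On day 3 it was the highest in neither population. Without Resident day 6 replicate 1, 13 members were called.

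Isg15, a ubiquitin-like protein (Isg15: ENSMUSG00000035692, chromosome 4, 156199424 to 156200818), held 44.1, 35.3 and 65.5 CPM in resident cells on day 3, 13.2, 2.28 and 5.16 on day 6, 187, 277 and 213 in recruited cells on day 3 and 7.91, 4.27 and 6.44 on day 6. Levels fell in both populations, from a higher start in recruited cells, and overlapped on day 6. The interaction was -2.35 ± 0.68 log2 (SE; edgeR adjusted p = 0.0367, 0.00818 with pairs as a block), but the call was lost without any 1 of 7 libraries (Resident day 3 replicates 1 and 2, Resident day 6 replicate 1, Recruited day 3 replicates 2 and 3, Recruited day 6 replicates 2 and 3), with adjusted p from 0.0596 to 0.185 and a smallest value of -1.47. Mx1, a GTPase that blocks viral replication, held 13.5, 8.34 and 18.3 CPM in resident cells on day 3, 13.3, 1.70 and 3.35 on day 6, 92.7, 191 and 138 in recruited cells on day 3 and 12.0, 4.36 and 7.83 on day 6. Its interaction of -2.96 ± 0.72 (edgeR adjusted p = 0.0138) was -1.70 (adjusted p = 0.0985) without Resident day 6 replicate 1, which alone among resident day 6 libraries kept the day 3 level. Ifit3, an RNA-binding antiviral protein, had an interaction of -2.58 ± 0.65 (adjusted p = 0.0164), and without that same library -1.55 (adjusted p = 0.0909).

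Ifi27l2a, a small interferon-induced membrane protein (ENSMUSG00000079017, chromosome 12, 103442167 to 103443680), was called in opposite directions. It held 15.8, 6.84 and 13.7 CPM in resident cells on day 3, 73.8, 12.6 and 21.3 on day 6, 82.7, 75.2 and 93.9 in recruited cells on day 3 and 38.9, 14.8 and 16.3 on day 6. Resident day 6 replicate 1 was the highest resident library, and the others of its day overlapped day 3. Resident cells rose by 1.56 ± 0.52 log2 (adjusted p = 0.0354) and recruited cells changed by -1.84 ± 0.52 (adjusted p = 0.00968). The interaction was -3.40 ± 0.73 (edgeR adjusted p = 0.00621) and kept its call without any 1 of the 12 libraries, at -2.32 (adjusted p = 0.0209) without Resident day 6 replicate 1. With the 12 libraries alone in the fit the call was lost at adjusted p = 0.0514. Other called members include the transcription factor Stat2 (-1.54), the RNA sensor Ifih1 (-1.40) and the oligoadenylate synthase Oas2 (-2.03), chosen after their values were seen. Ifit1 was called but lost its call without any 1 of 7 libraries, with edgeR adjusted p from 0.0616 to 0.266 and a smallest value of -1.24. Ifi44 was not called in the main fit or in any alternative by edgeR or DESeq2 (adjusted p from 0.367 to 0.901 in the alternatives).

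The promoters of 3 members are printed because they show the interferon-stimulated response element, here GAAA, 2 bases of any kind and GAAA, on either strand, in capitals. Each run is 250 bases before the annotated start, in the gene's direction, from RefSeq (GRCm38.p6).
Isg15 (chr4:156200819-156201068, - strand): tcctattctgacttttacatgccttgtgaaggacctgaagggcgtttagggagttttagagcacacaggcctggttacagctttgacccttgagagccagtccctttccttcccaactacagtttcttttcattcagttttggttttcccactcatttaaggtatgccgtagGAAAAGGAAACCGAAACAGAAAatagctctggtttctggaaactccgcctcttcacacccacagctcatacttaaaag
Ifit1 (chr19:34640639-34640888, + strand): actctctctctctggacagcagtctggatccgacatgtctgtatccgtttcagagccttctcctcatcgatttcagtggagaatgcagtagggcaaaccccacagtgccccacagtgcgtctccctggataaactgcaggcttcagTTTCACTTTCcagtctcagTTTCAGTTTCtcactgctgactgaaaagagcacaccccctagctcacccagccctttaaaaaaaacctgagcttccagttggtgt
Ifit3 (chr19:34583279-34583528, + strand): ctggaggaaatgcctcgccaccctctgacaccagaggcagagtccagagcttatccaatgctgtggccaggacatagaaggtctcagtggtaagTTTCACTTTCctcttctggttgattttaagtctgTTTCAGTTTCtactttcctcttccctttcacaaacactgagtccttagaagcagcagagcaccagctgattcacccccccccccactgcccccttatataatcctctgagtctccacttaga
In windows from 250 bases before to 50 after the start, 13 of 24 members with a window (54.2%) held these letters, against 3.94% of 9894 tested genes with one, 13.4% of the lower genes and 3.88% of the higher genes. Among genes that fell, the share was 22.2% in the unequal set, 14% in the recruited set and 6.01% in the shared set. A match is a description and not a binding site.

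Genes induced by interferon-gamma and genes of class I antigen presentation also had lower interactions, of smaller size. Of 17 tested GTPases and related genes, 8 were lower and 0 higher, with a median of -1.02. Of 17 genes for peptide loading and the immunoproteasome 9 were lower and 0 higher, with a median of -0.90. Over all genes 4.26% were lower and 4.18% higher. With pairs as a block 10 and 11 members were lower and 0 higher. No member of either list was higher at unadjusted p under 0.05 or by DESeq2, and 8 and 12 were lower by DESeq2. In the first list resident cells fell in 15 and recruited cells in 16, and in the second in 11 and 15 (13.3% and 16.8% of all genes). Of the GTPase list 15 of 17 interactions were negative, and of the other list 17 of 17. The GTPase count was 4 without Resident day 3 replicate 1, Resident day 6 replicate 1 or Recruited day 6 replicate 3, and 3 without Recruited day 3 replicate 2. Ifi47, an immunity-related GTPase, held 82.1, 86.0 and 97.7 CPM in resident cells on day 3, 24.0, 14.2 and 12.6 on day 6, 259, 380.5 and 291 in recruited cells on day 3 and 17.7, 21.5 and 21.6 on day 6. Day 6 libraries lay below day 3 libraries in both populations, and the interaction was -1.55 ± 0.31 (edgeR adjusted p = 0.00284). Psmb8, a catalytic subunit of the immunoproteasome, held 249.6, 195 and 255 CPM in resident cells on day 3, 179.7, 115 and 121 on day 6, 481, 447 and 407 in recruited cells on day 3 and 119, 135 and 109.8 on day 6, with an interaction of -1.12 ± 0.22 (adjusted p = 0.00229). Tap2, a subunit of the transporter that carries peptides into the endoplasmic reticulum, gave -1.07 ± 0.21 (adjusted p = 0.00279). The class II and costimulation list had 1 of 17 called lower, the class II transactivator Ciita (-1.66, not called without Recruited day 3 replicate 2 at adjusted p = 0.053), and 6 lower and 1 higher with pairs as a block.

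**Figure D2:**
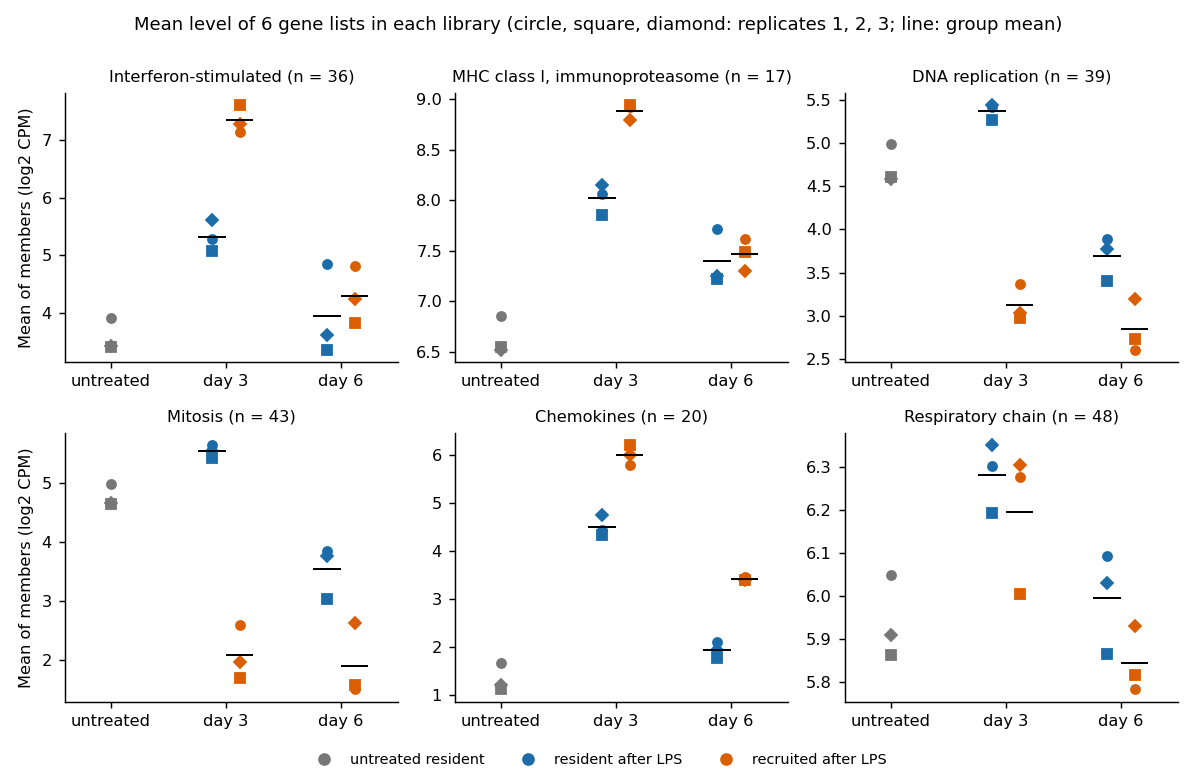
Mean log2 CPM of the tested members of 6 gene lists in each library, by untreated cells, day 3 and day 6, with lines for group means; n is the number of tested members. Blue is resident, orange recruited and grey untreated. Interferon and class I lists start higher in recruited cells and meet resident cells by day 6, replication and mitosis lists fall in resident cells towards recruited cells, and chemokine and respiratory chain lists decline in both.

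DNA replication genes gave the opposite sign, through a fall in resident cells. Of 39 tested, 23 had a higher interaction and 0 a lower one by edgeR (4.18% and 4.26% over all genes), with a median of 1.47 log2. The counts were 31 and 0 at unadjusted p under 0.05 and 27 and 0 by DESeq2, and 30 were higher with pairs as a block. Resident cells fell in 37 members (13.3% of all genes) and recruited cells in 8 (16.8%), with 2 rising (15.1%). Recruited cells were below resident cells in 39 of 39 on day 3 (23.5% of all genes) and in 23 on day 6. The list mean was 5.42, 5.27 and 5.44 log2 CPM in resident libraries on day 3 and 3.89, 3.41 and 3.78 on day 6, below the 4.99, 4.60 and 4.58 of untreated cells, while recruited libraries held 3.37, 2.97 and 3.03 on day 3 and 2.61, 2.73 and 3.20 on day 6. The resident groups did not overlap and the recruited groups did.

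Cdc6, which loads the replicative helicase (ENSMUSG00000017499, chromosome 11, 98907801 to 98923940), held 24.2, 21.4 and 23.9 CPM in resident cells on day 3, 7.24, 3.52 and 4.64 on day 6, 1.96, 1.81 and 1.46 in recruited cells on day 3 and 2.78, 1.21 and 2.42 on day 6. Resident libraries dropped without overlap and recruited libraries stayed low throughout. The interaction was 2.49 ± 0.50 (edgeR adjusted p = 0.00276). Cdc45, a part of that helicase (2.31 ± 0.46, adjusted p = 0.00276), and Chaf1a, a histone chaperone (2.21 ± 0.49, adjusted p = 0.00621), also kept their calls without any 1 of the 12 libraries. The helicase subunits Mcm2 (2.03), Mcm5 (1.69) and Mcm7 (1.90) and the clamp Pcna (0.66) were called too and were chosen after their values were seen.

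Mitosis genes had the larger median interaction, 1.98 log2 over 43 tested. Of these 9 were called higher and 0 lower (4.18% and 4.26% over all genes), and 42 of 43 were positive. With pairs as a block 26 were higher, and DESeq2 called 18 higher and 0 lower. At unadjusted p under 0.05, 25 were higher and 1 lower. Resident cells fell in 40 (13.3% of all genes) and recruited cells in 3 (16.8%). Racgap1, a regulator of cytokinesis (ENSMUSG00000023015, chromosome 15, 99620496 to 99651656), held 94.7, 87.1 and 97.0 CPM in resident cells on day 3, 27.1, 15.5 and 24.6 on day 6, 9.73, 4.16 and 5.83 in recruited cells on day 3 and 7.11, 11.3 and 15.8 on day 6. Every resident day 6 library was below every resident day 3 library, while the 2 populations overlapped on day 6. The interaction was 2.84 ± 0.52 (edgeR adjusted p = 0.00177). Kif23, a motor of the dividing cell's midzone, gave 2.20 ± 0.49 (adjusted p = 0.00721). Mki67, a nuclear marker of cycling cells, held 533, 502 and 538 CPM in resident cells on day 3, 120.2, 77.7 and 114 on day 6, 198, 204 and 134 in recruited cells on day 3 and 72.4, 64.1 and 89.4 on day 6 and fell in both populations, by -2.34 ± 0.41 in resident and -1.25 ± 0.40 in recruited cells as log2 changes. Its interaction of 1.09 ± 0.56 did not pass (adjusted p = 0.255, and 0.0068 with pairs as a block). Stmn1, a microtubule regulator outside the list, was among the 10 highest interactions at 2.96 ± 0.50 (adjusted p = 0.0008).

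Promoters of a replication and a mitosis gene are shown for the letters TTTNNCGC, an E2F-type match, in Cdc6, and TTTGAA, the cell cycle homology region, in Kif11, on either strand and in capitals (250 bases before the start, RefSeq GRCm38.p6). The Cdc6 window precedes the RefSeq start but lies inside the gene span from GENCODE given above.
Cdc6 (chr11:98907901-98908150, + strand): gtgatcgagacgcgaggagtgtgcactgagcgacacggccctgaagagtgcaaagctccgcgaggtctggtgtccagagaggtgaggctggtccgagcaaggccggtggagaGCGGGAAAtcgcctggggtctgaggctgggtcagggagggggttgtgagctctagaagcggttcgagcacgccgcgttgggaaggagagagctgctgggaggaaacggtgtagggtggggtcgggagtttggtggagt
Kif11 (chr19:37376132-37376381, + strand): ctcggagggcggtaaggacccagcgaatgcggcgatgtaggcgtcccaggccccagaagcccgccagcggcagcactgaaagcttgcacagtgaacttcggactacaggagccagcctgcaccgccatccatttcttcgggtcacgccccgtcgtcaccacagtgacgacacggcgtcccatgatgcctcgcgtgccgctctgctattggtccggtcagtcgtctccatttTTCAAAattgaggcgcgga
The first was in 15 of 33 replication genes (45.5%) against 9.66% of tested genes, and the other in 26 of 36 mitosis genes (72.2%) against 14.4%. Among genes that fell in resident cells alone, the shares were 26.2% and 23.8%. Kif11 itself, a spindle motor, had an interaction of 2.70 ± 0.81 (adjusted p = 0.0436) that was lost without any 1 of 9 libraries (all 6 resident ones, Recruited day 3 replicates 2 and 3 and Recruited day 6 replicate 3), at adjusted p up to 0.171.

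**Figure D3:**
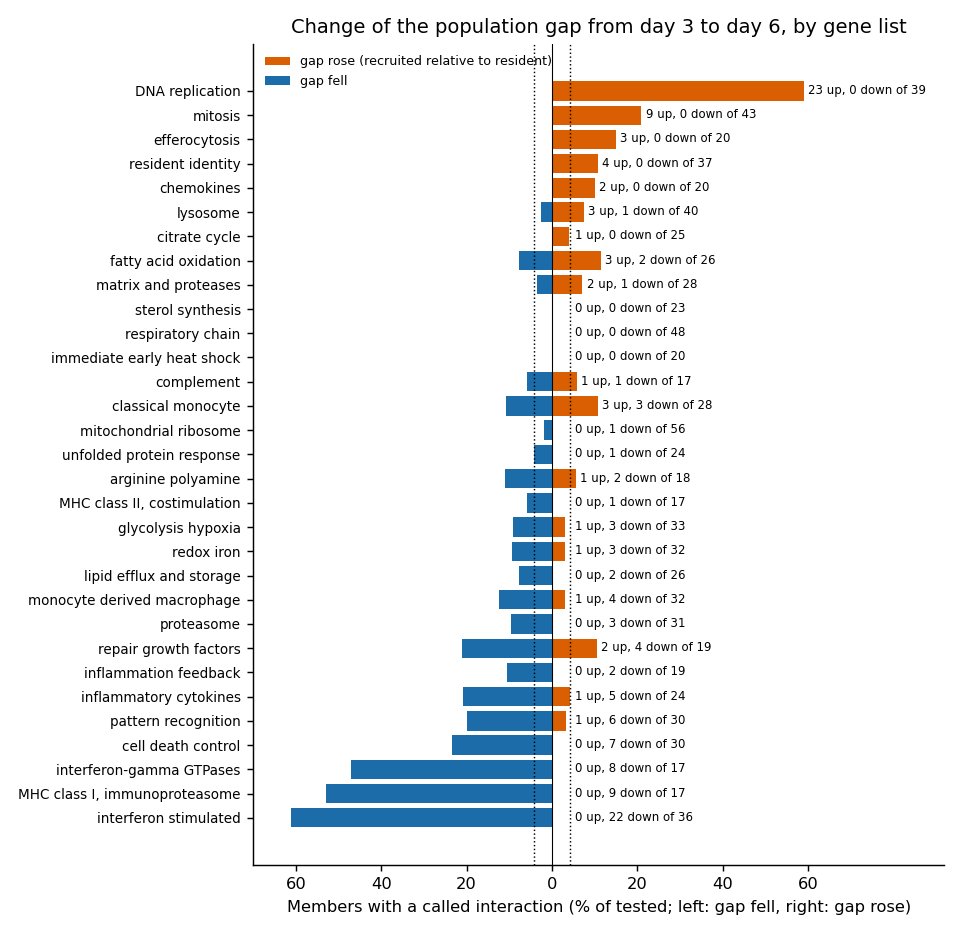
Share of each gene list's tested members with a called interaction, to the right where the gap rose and to the left where it fell, with counts beside the bars; dotted lines mark 4.18% higher and 4.26% lower over all genes. DNA replication reaches 23 of 39 on the right and interferon-stimulated genes 22 of 36 on the left.

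Cytokines and chemokines mostly declined in both populations. The shared set held 2 of the 24 cytokines and mediators and 0 of the 20 chemokines (7.21% of all genes). Another 9 and 12 fell in both without a called interaction but with a wider interval, so an equal decline was not shown for them. Of 24 tested inflammatory cytokines and mediators, 15 fell in resident (13.3% of all genes) and 19 in recruited cells (16.8%). Of their interactions 1 was higher (4.18% of all genes) and 5 were lower (4.26%). The lower count was 3 without Resident day 3 replicate 2, Recruited day 3 replicate 2, or Recruited day 6 replicate 2 or 3. Of 20 chemokines, 14 fell in resident and 12 in recruited cells, with 2 interactions higher and 0 lower. At unadjusted p under 0.05, 3 were higher and 1 lower (1600 and 1488 of all 13599 genes). By DESeq2 the counts were 3 and 0 (789 and 729 of all genes). Nos2, the inducible nitric oxide synthase, held 115, 55.6 and 80.1 CPM in resident cells on day 3, 0.487, 0.0652 and 0.193 on day 6, 1402, 3801 and 1946 in recruited cells on day 3 and 13.6, 14.1 and 9.76 on day 6. It dropped in both populations, by -8.37 ± 0.58 and -7.58 ± 0.47 as log2 changes in resident and recruited cells, and the interaction of 0.79 ± 0.79 did not pass (95% interval -0.86 to 2.45, adjusted p = 0.61). Cxcl10, a T cell attractant chosen after its values were seen, fell too, with log2 changes of -6.34 and -7.16 and an interval of -2.02 to 0.39. Tnf, the central inflammatory cytokine, had an interaction of -1.11 ± 0.89 (adjusted p = 0.504), and Ccl2, a monocyte attractant, 1.16 ± 1.18 (adjusted p = 0.616). Il1b, interleukin-1 beta, had -2.22 ± 0.72 (adjusted p = 0.0617) and passed without Resident day 6 replicate 2 (adjusted p = 0.0477) or Recruited day 6 replicate 1 (adjusted p = 0.0292), by DESeq2 (adjusted p = 0.0311) and with a stricter filter on low counts (adjusted p = 0.0483). With pairs as a block it did not pass (adjusted p = 0.166). The neutrophil marker sums above, of which Lcn2 was the largest member on day 3, fell over the same days in both populations.

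Csf1, the macrophage growth factor (ENSMUSG00000014599, chromosome 3, 107741048 to 107760469), stood against its list. It held 35.3, 26.2 and 14.9 CPM in resident cells on day 3, 2.16, 1.04 and 1.42 on day 6, 63.0, 93.9 and 45.8 in recruited cells on day 3 and 54.2, 54.2 and 27.98 on day 6. Resident libraries on day 6 lay around the untreated level of 1.54 ± 0.250 CPM (SD, n = 3), while recruited libraries of the 2 days overlapped. The interaction was 3.47 ± 0.50 (edgeR adjusted p = 0.000268). Ccl9, a CC chemokine, held 608, 542 and 693 CPM in resident cells on day 3, 127, 97.0 and 117 on day 6, 508, 538 and 562 in recruited cells on day 3 and 332, 380.5 and 395 on day 6. Both populations began level, and resident libraries fell further, with an interaction of 1.89 ± 0.40 (adjusted p = 0.00509). Ccl17, a chemokine for T cells, gave 2.80 ± 0.73 (adjusted p = 0.0174, and 0.0516 without Recruited day 6 replicate 1, which left 1 chemokine called). Il1rn, the interleukin-1 receptor antagonist, held 431, 375 and 389.9 CPM in resident cells on day 3, 256, 220.1 and 248 on day 6, 904, 1689 and 781 in recruited cells on day 3 and 165, 138 and 128 on day 6. Recruited cells began above and ended below resident cells, and the interaction was -2.24 ± 0.30 (adjusted p = 0.000141). Tnip1, an inhibitor of NF-kB signalling, fell in both populations and gave -0.75 ± 0.19 (adjusted p = 0.0127).

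**Figure D4:**
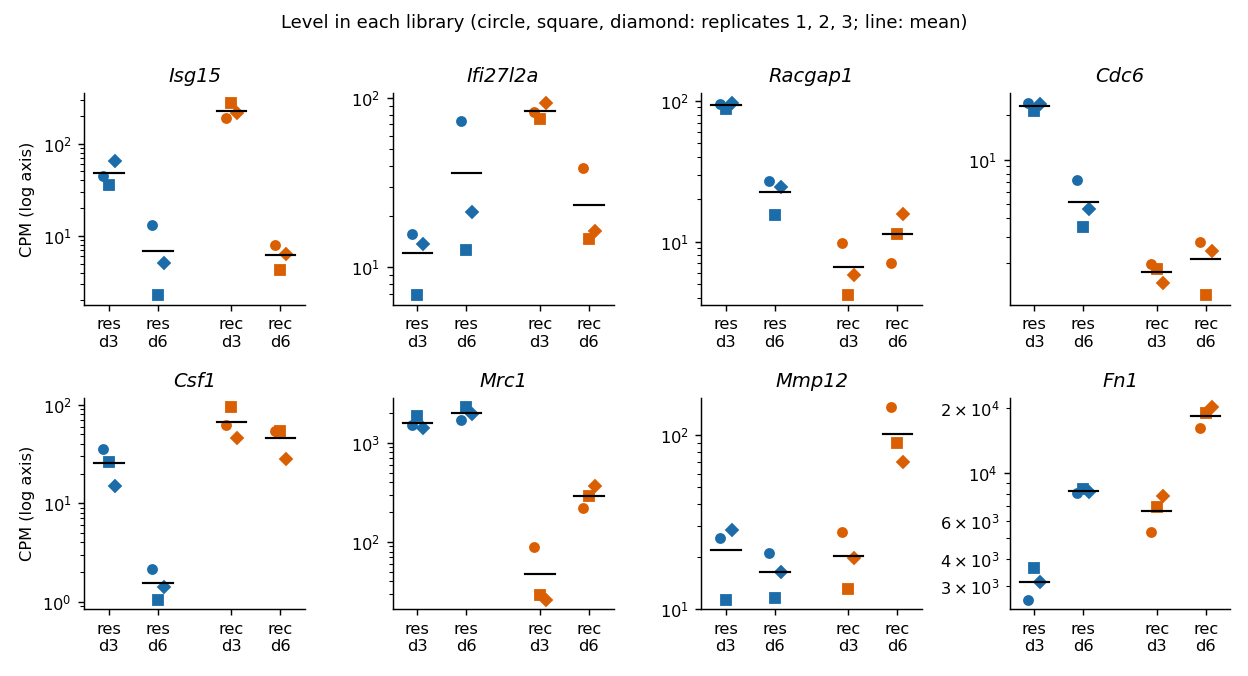
CPM of 8 genes in each library on log axes, resident (res) and recruited (rec) cells on days 3 and 6 (d3, d6), with a line at each group mean. Isg15 levels meet on day 6, and Racgap1 and Cdc6 fall in resident cells. Csf1 falls further in resident than in recruited cells, Mrc1 and Mmp12 rise in recruited cells and Fn1 rises in both.

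Pattern recognition genes had 6 interactions lower and 1 higher of 30 (4.26% and 4.18% over all genes, 7 and 1 with pairs as a block). The lower ones include the inflammasome protease Casp1 (-0.97 ± 0.15, adjusted p = 0.000316) and the peptidoglycan sensor Nod1 (-1.12 ± 0.25, adjusted p = 0.00688). Mrc1, the mannose receptor and a marker of resident macrophages (ENSMUSG00000026712, chromosome 2, 14229392 to 14332057), was the exception, holding 1524, 1841 and 1409 CPM in resident cells on day 3, 1687, 2263 and 1965 on day 6, 89.1, 28.9 and 26.1 in recruited cells on day 3 and 222, 288 and 364 on day 6. Recruited libraries rose without overlap and remained below every resident library, with an interaction of 2.29 ± 0.55 (edgeR adjusted p = 0.0117; 3.09 without Recruited day 3 replicate 1).

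Of 37 genes of resident identity, 4 interactions were higher and 0 lower in the main edgeR fit (4.18% and 4.26% over all genes). The higher count was 7 with pairs as a block (8.32% of all genes) or without Recruited day 3 replicate 1. At the lowest it was 3, as without Resident day 3 replicate 1. DESeq2 called 8 higher and 0 lower (789 and 729 of all 13599 genes). At unadjusted p under 0.05, 9 and 0 passed (1600 and 1488 of all genes). Besides Mrc1, the main fit called the transcription factor Bhlhe41 (1.89 ± 0.37, adjusted p = 0.00264), the proton pump subunit Atp6v0d2 (1.85 ± 0.39, adjusted p = 0.00441) and the glycoprotein Gpnmb, which was above resident cells on day 6 (2.29 ± 0.67, adjusted p = 0.0386, not called without any 1 of 11 libraries, all but Recruited day 3 replicate 1). Siglecf, the sialic acid receptor of alveolar macrophages, held 249, 191 and 139 CPM in resident cells on day 3, 473, 529 and 499 on day 6, 11.8, 2.36 and 1.82 in recruited cells on day 3 and 25.7, 11.8 and 21.2 on day 6 and had an interaction of 0.49 ± 0.84 (adjusted p = 0.785). Pparg, the nuclear receptor of alveolar macrophage development, rose in recruited cells by 1.44 ± 0.33, and its interaction of 1.24 ± 0.46 did not pass without the block of pairs and passed with it or by DESeq2 (edgeR adjusted p = 0.099, and 0.014 with the block).

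Monocyte and newly differentiated macrophage genes split. Of 28 classical monocyte genes 3 were higher and 3 lower (4.18% and 4.26% over all genes, 7 and 5 with pairs as a block). Their median of -0.07 turned to 0.05 with library size scaling. The higher count was 1 without Resident day 6 replicate 2 or Recruited day 3 replicate 2, and the lower count 1 without Resident day 3 replicate 2, Recruited day 3 replicate 3 or Recruited day 6 replicate 2. Ccr2, the monocyte chemokine receptor, gave -2.35 ± 0.62 (adjusted p = 0.0226) and lost its call without any 1 of 6 libraries (Resident day 3 replicates 2 and 3, Resident day 6 replicate 1, Recruited day 3 replicates 2 and 3, Recruited day 6 replicate 2; adjusted p up to 0.0618), and Itgam gave 2.65 ± 0.71 (adjusted p = 0.025), lost without Resident day 3 replicate 3, Resident day 6 replicate 2 or Recruited day 3 replicate 2. Itgam is the gene of the sort marker. Of 32 monocyte-derived macrophage genes, 1 was higher and 4 lower (5 and 4 with pairs as a block), although the median was 0.98 log2. The lower count was 2 without Resident day 3 replicate 2 or 3, Resident day 6 replicate 1, Recruited day 3 replicate 3, or Recruited day 6 replicate 1 or 2. Mmp12, the macrophage elastase (ENSMUSG00000049723, chromosome 9, 7344381 to 7369499), held 25.4, 11.3 and 28.4 CPM in resident cells on day 3, 21.1, 11.5 and 16.4 on day 6, 27.8, 12.96 and 19.7 in recruited cells on day 3 and 145, 89.9 and 70.6 on day 6. The recruited libraries of day 6 lay above all others, which overlapped, and the interaction was 2.75 ± 0.56 (edgeR adjusted p = 0.00379). Fcgr4, an activating Fc receptor, held 148, 178 and 197 CPM in resident cells on day 3, 180.0, 164 and 173 on day 6, 171, 273 and 303 in recruited cells on day 3 and 41.9, 48.6 and 54.9 on day 6, and its interaction of -2.34 ± 0.53 (adjusted p = 0.0077) came with a fall in recruited cells. C5ar1, the receptor of complement fragment C5a, rose in resident cells by 0.67 ± 0.19 and changed by -0.49 ± 0.19 in recruited cells, with an interaction of -1.17 ± 0.27 (adjusted p = 0.00734). Apoe, a lipid carrier, held 51.9, 24.9 and 25.6 CPM in resident cells on day 3, 216, 64.2 and 123 on day 6, 1277, 981 and 1139 in recruited cells on day 3 and 17379.7, 11573 and 14120.5 on day 6 and rose in both populations, and its interaction of 1.69 ± 0.77 did not pass without the block of pairs and passed with it (edgeR adjusted p = 0.191, and 0.00345 with the block).

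Energy metabolism lists differed in how many interactions were called, beside 4.18% higher and 4.26% lower over all genes. Over all genes 13.3% fell in resident cells, 16.8% fell in recruited cells and 7.21% were in the shared set. Of 48 respiratory chain genes, 19 fell in resident and 25 in recruited cells, and 15 were in the shared set. The main edgeR fit called 0 interactions, and the fit with pairs as a block 2 higher and 2 lower. At unadjusted p under 0.05, 2 were higher and 2 lower, and DESeq2 called 0 higher and 1 lower. Of 56 mitochondrial ribosome genes, 15 and 17 fell and 1 interaction was called, and 0 without any 1 of 9 libraries (Resident day 3 replicate 1, Resident day 3 replicate 2, Resident day 6 replicate 1, Resident day 6 replicate 3, Recruited day 3 replicate 1, Recruited day 3 replicate 3, Recruited day 6 replicate 1, Recruited day 6 replicate 2, Recruited day 6 replicate 3). Sterol synthesis had 0 of 23 interactions by edgeR (1 higher and 0 lower unadjusted, by DESeq2 or with pairs as a block). Immediate early and heat shock genes had 0 of 20 (0 unadjusted, 0 by DESeq2). With pairs as a block, 5 of 26 fatty acid oxidation genes were higher and 2 lower. Without the block 3 interactions were higher and 2 lower, all 5 called in recruited cells alone. The higher ones include the mitochondrial enzymes Hadh (0.56 ± 0.15, adjusted p = 0.0215) and Decr1 (1.00 ± 0.27, adjusted p = 0.022), and the lower ones were the carnitine carrier Slc25a20 (-0.69 ± 0.19, adjusted p = 0.0236) and the peroxisomal thiolase Acaa1a (-0.68 ± 0.19, adjusted p = 0.0302). Hadh was chosen after its values were seen. The higher count was 0 without Resident day 6 replicate 2, Recruited day 3 replicate 2 or Recruited day 6 replicate 3, and 1 without Resident day 3 replicate 1 or 2 or Recruited day 3 replicate 3. The lower count was 0 with library size scaling or without Resident day 3 replicate 2, Recruited day 3 replicate 3 or Recruited day 6 replicate 1, and 1 without Resident day 3 replicate 3, Resident day 6 replicate 1 or 3, or Recruited day 6 replicate 2. Glycolysis and hypoxia genes fell in 20 of 33 in recruited and 10 in resident cells, with 1 interaction higher and 3 lower (3 and 8 with pairs as a block, and 5 lower without Recruited day 3 replicate 1). Pfkfb3, which makes the activator of phosphofructokinase, held 86.8, 102 and 104 CPM in resident cells on day 3, 79.2, 95.9 and 95.7 on day 6, 362, 523 and 508 in recruited cells on day 3 and 175, 186 and 177 on day 6. Resident libraries of the 2 days overlapped and recruited libraries dropped without overlap, with an interaction of -1.26 ± 0.18 (edgeR adjusted p = 0.000181). Vegfa, a vascular growth factor induced by hypoxia, gave 3.16 ± 0.93 (adjusted p = 0.0386) and lost its call without any 1 of 6 libraries (Resident day 3 replicate 1, Resident day 6 replicates 2 and 3, Recruited day 3 replicates 2 and 3, Recruited day 6 replicate 1; adjusted p up to 0.143), which left 0 glycolysis and hypoxia genes higher. Nr1h3, the sterol-sensing nuclear receptor LXR alpha, gave -1.01 ± 0.21 (adjusted p = 0.00359), and Dgat2, the last enzyme of triglyceride synthesis, -1.83 ± 0.41 (adjusted p = 0.00747).

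Constitutive proteasome subunits had a negative interaction in 30 of 31 and a median of -0.38. Of the subunits 3 were called lower (4.26% over all genes), and 13 with pairs as a block (7.84%). The count was 7 without Recruited day 6 replicate 3 and 0 without Recruited day 6 replicate 1. They fell in 18 in resident (13.3% of all genes) and 30 in recruited cells (16.8%), and 14 belonged to the shared set (7.21%). Lysosomal genes rose in 15 of 40 in recruited (15.1% of all genes) and 6 in resident cells (11.2%). Of their interactions 3 were higher and 1 lower (4.18% and 4.26% over all genes), and 8 and 2 with pairs as a block (8.32% and 7.84%). Atp6v0a1, a membrane subunit of the proton pump, held 238, 232 and 235 CPM in resident cells on day 3, 159.8, 156 and 171 on day 6, 123, 160.0 and 113 in recruited cells on day 3 and 179.7, 245 and 292 on day 6. It fell in resident cells by -0.54 ± 0.17 as a log2 change and rose in recruited cells by 0.86 ± 0.17, with an interaction of 1.39 ± 0.24 (edgeR adjusted p = 0.000921). Ppt1, a lysosomal thioesterase, went the other way at -0.84 ± 0.17 (adjusted p = 0.00342).

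Genes of cell death control had 7 of 30 interactions lower and 0 higher (4.26% and 4.18% over all genes), with a median of -0.35. The counts were 12 and 1 at unadjusted p under 0.05, 8 and 0 by DESeq2 and 10 and 0 with pairs as a block. Bcl2l11, the death promoter Bim, held 63.4, 57.3 and 51.7 CPM in resident cells on day 3, 127, 145 and 141 on day 6, 112, 147 and 119.7 in recruited cells on day 3 and 132, 131 and 132 on day 6. Resident libraries rose without overlap to the level that recruited libraries held on both days, and the interaction was -1.20 ± 0.14 (edgeR adjusted p = 4.92e-05). Gsdmd, which forms pores in pyroptosis (-0.99 ± 0.17, adjusted p = 0.000663), and Birc3, an inhibitor of apoptosis (-1.05 ± 0.24, adjusted p = 0.00675), fell in recruited cells by -1.16 ± 0.12 and -1.18 ± 0.17 as log2 changes. Efferocytosis genes had 3 of 20 higher and 0 lower, and 6 and 1 with pairs as a block. At unadjusted p under 0.05 they had 4 and 1, and by DESeq2 3 and 0. Pros1, a bridging protein for dying cells, rose in both populations, by 1.13 in resident and 2.23 in recruited cells, with an interaction of 1.10 ± 0.25 (adjusted p = 0.00789), and Dock1, an engulfment factor, gave 0.80 ± 0.14 (adjusted p = 0.00128). Repair growth factors had 2 higher and 4 lower of 19 (4 and 5 with pairs as a block). They had 4 higher without Recruited day 3 replicate 1 and 1 lower without Recruited day 3 replicate 2 or 3. Vegfb, a vascular growth factor, rose in recruited cells and had an interaction of 1.77 ± 0.32 (adjusted p = 0.00128). Cp, the copper oxidase ceruloplasmin, fell further in resident cells, at 2.80 ± 0.61 (adjusted p = 0.00573), and Ncf1, an NADPH oxidase subunit, gave -0.71 ± 0.16 (adjusted p = 0.00734).

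Several of the largest interactions lay outside the lists. Spon1, a secreted matrix protein, held 2.69, 0.834 and 0.947 CPM in resident cells on day 3, 0.835, 0.717 and 1.10 on day 6, 32.8, 54.9 and 38.4 in recruited cells on day 3 and 1.61, 0.743 and 1.73 on day 6. Recruited day 3 libraries stood above all others, and the interaction was -4.15 ± 0.61 (edgeR adjusted p = 0.000237; -4.89 without Resident day 3 replicate 1). Treml4, a myeloid receptor, gave -3.03 ± 0.65 (adjusted p = 0.00595), and Col4a2, a basement membrane collagen, -2.92 ± 0.73 (adjusted p = 0.0154). On the higher side, Mrgpre, an orphan receptor, held 23.4, 23.7 and 20.4 CPM in resident cells on day 3, 25.4, 30.9 and 30.6 on day 6, 4.80, 3.77 and 1.60 in recruited cells on day 3 and 26.2, 37.9 and 32.5 on day 6. Recruited libraries reached the resident level by day 6, with an interaction of 2.87 ± 0.40 (adjusted p = 0.00017). C77080 did likewise (2.96 ± 0.41, adjusted p = 0.000186), and Ephx1, an epoxide hydrolase, rose in both populations (2.95 ± 0.64, adjusted p = 0.00577). All 6 are among the 44 of 76 named genes with a called interaction that kept the call without any 1 of the 12 libraries. Other large interactions of named genes did not keep it. Timp1 lost its call without any 1 of 11 libraries (-4.81 to -3.75 log2, edgeR adjusted p up to 0.104). Thbs1 lost it without any 1 of 10 (3.25 to 4.13, adjusted p up to 0.0931), and Plekhg4 without any 1 of 4 (-3.74 to -2.81, adjusted p up to 0.314).

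The shared set shows what changed alike. Fn1, fibronectin (ENSMUSG00000026193, chromosome 1, 71585520 to 71653200), held 2582, 3637 and 3112 CPM in resident cells on day 3, 8066, 8430.2 and 8164 on day 6, 5325, 6951 and 7777 in recruited cells on day 3 and 16068, 18832 and 20048 on day 6. It rose in both by 1.40 ± 0.33 and 1.45 ± 0.33 log2, with an interaction of 0.05 ± 0.45 and an interval of -0.89 to 1.00. Tppp3, a tubulin-binding protein, rose by 1.85 and 2.02, and Cyp27a1, a sterol hydroxylase, by 1.66 and 1.24 in resident and recruited cells. Among genes that fell, Nfkbie, an inhibitor of NF-kB, held 62.4, 69.9 and 74.7 CPM in resident cells on day 3, 16.2, 14.2 and 17.2 on day 6, 143, 275 and 197 in recruited cells on day 3 and 37.5, 50.6 and 46.4 on day 6. It fell in both populations, and the interval of its interaction was -0.71 to 0.56. Tgtp2, an interferon-gamma-induced GTPase, changed by -4.67 and -4.65 (interval -0.59 to 0.63), and Acsl1, which activates fatty acids, by -2.02 and -1.74.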

How the data were processed

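The deposited table holds raw read counts per gene for 27 libraries, not normalized. Tools named in the submitters' processing notes, with no roles, are HTSeq 0.6.0 and STAR 2.4.0a, then R 3.1.0 with DESeq2 1.4.5, and the build is mm10; per the labels' protocols libraries came from a modified stranded kit run on an Ion Proton. Neither annotation release nor strand setting is given in the sources used here, so overlapping genes and near-identical copies may share reads. A second deposited table counts reads assigned to no gene and stayed out of library sizes and tests.

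Symbols and positions came from GENCODE M21 (GRCm38), which matched 36345 of 38124 genes. edgeR 4.0.16 in R 4.3.3 kept genes by filterByExpr (minimum count 10, total 15) and fitted TMM-scaled means of 9 groups from all 27 libraries (robust, with 18 residual degrees of freedom), with two-sided quasi-likelihood tests adjusted by Benjamini-Hochberg over 13599 genes at 0.05. SE is the change divided by the square root of F. CPM use TMM-scaled totals, and list means are log2 CPM with a prior count of 2. An exact permutation test of 3 against 3 cannot go below p = 0.1. The main edgeR fit of the interaction was run on simulated counts, and the alternative fits were not. DESeq2 1.42.0 was an alternative.

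Named genes were up to 3 per list by size of a called interaction with at least 20 CPM in a group, the 10 highest and lowest of all genes, 6 shared genes in each direction, 19 known genes, and members that moved against their list's majority. The members and the lists were chosen with earlier results of these data known. Same-number resident and recruited libraries of a day deviated together in 12 of 12 pairs (r from 0.17 to 0.52 across genes, and 0.17 to 0.29 in the 6 pairs of days 3 and 6), so the pairing comes from the data. On days 3 and 6, libraries of 1 replicate number also fell in 1 run of the numbers in front of the library names. Whether the shared deviation belonged to the pair or to the run was not tested. Values with a block for each pair stand beside some of the results that it changes. Under it, changes within each population were kept from the fit without it. Promoters came from RefSeq, matched by symbol to 9894 tested genes.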

Additional observations from a re-analysis of the deposited data

Results flagged for a closer look

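The day 6 minus day 3 change differed between the 2 populations in 1147 genes by the interaction test, and in 70 of these the populations were called in opposite directions. Named examples of opposite change are Ifi27l2a, with an interaction of -3.40 log2, C5ar1 with -1.17 and Atp6v0a1 with 1.39. The opposite set numbered 44 without Resident day 6 replicate 1, the resident library in which Ifi27l2a was highest.

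Reads outside genes, counted in the table kept out of the tests, exceeded the highest untreated library (11.19%) in 5 libraries: 11.83% in Resident day 6 replicate 1, 11.95% in Recruited day 3 replicate 1, 11.22% in Recruited day 3 replicate 2, 12.31% in Recruited day 6 replicate 1 and 26.45% in Recruited day 6 replicate 2. The part of these reads in the results was not tested.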

How the results depend on the processing

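Each alternative kept the direction of every called gene that it also called. With the replicate block of library pairs, 2198 genes were called (1132 higher, 1066 lower), 1006 in recruited cells alone, 560 in resident cells alone and 282 in both unequally, and 26 mitosis genes were higher; among 101 named genes, 3 gained a call and none lost one. A factor for runs of the numbers in front of the library names in the table of unassigned reads gave 2062 (1073, 989), with classes of 932, 579 and 327, 153 opposite and 22 mitosis genes. Library size alone gave 311 lower, and no filter on low counts 362 lower and 42 opposite. The 12 libraries alone called 14 interferon-stimulated, 4 GTPase and 23 mitosis genes, and DESeq2 18 mitosis genes. A bound of 1.5-fold left 519 shared genes. Leaving out both libraries numbered 2 of day 6, chosen after seeing the data, gave 624 (330, 294), with 542 shared, classes of 359, 162 and 61, 26 opposite and 15 replication genes. The cause of these differences was not tested, except that fewer libraries enter the last fit.

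Leaving out 1 of the 12 libraries at a time, total calls ranged from 781 to 1390, higher calls from 405 to 734 and lower calls from 376 to 656. Shared genes ranged from 569 to 890, genes called in recruited cells alone from 396 to 729, in resident cells alone from 192 to 354, in both unequally from 86 to 183 and in opposite directions from 34 to 88. Lower interferon-stimulated genes ranged from 13 to 25, lower GTPases from 3 to 8, higher replication genes from 16 to 24 and higher mitosis genes from 7 to 10. The share of calls that were higher was 49.52%, and 70.74% with library size alone, which also turned the sign of the small medians of the classical monocyte, respiratory chain, repair growth factor, immediate early and heat shock, and endothelium and stroma lists. With 3 libraries a group, a gene without a call is not shown to have changed equally. Of the named genes, 27 lost their call without both libraries numbered 2 of day 6, 18 without a filter on low counts, 12 with the 12 libraries alone and 7 with library size alone.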
